A study of Mus musculus with 6 samples.

Results

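The genes described here encode the factors that start and extend protein chains on cytoplasmic ribosomes: the eukaryotic initiation factors (symbols beginning *Eif1* to *Eif6*), the elongation factors (*Eef1* and *Eef2*) and the cytoplasmic poly(A)-binding proteins *Pabpc1* and *Pabpc4*. Members were all protein-coding genes with such a symbol, leaving out the eIF2 kinases (*Eif2ak* genes) and the Y-linked *Eif2s3y*. This gave 84 of the 52230 genes summed from the transcript files, of which 69 had any count and 62 passed the filter on low values (at least 0.25 CPM, a count scaled to the size of its library, in at least 3 libraries). The symbols also bring in genes outside the core machinery: methyltransferases and a kinase that modify elongation factors, eIF4E-binding proteins, and a family of *Eif1ad* genes.

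RNA was taken from hippocampi of newborn mice (postnatal day 0), with the tissue of at least 2 pups in each library, and poly(A)+ strand-specific libraries were sequenced from 3 *Mov10* Deletion and 3 WT pools. *Mov10* encodes an RNA helicase that binds messenger RNAs. It takes part in the silencing of some of them by microRNAs and shields others from it, and the study proposes that shielding is its main role in the brain. The *Mov10* Deletion mouse came from a *Mov10* conditional knockout, with floxed *Mov10* and *Emx1*-Cre, mated to a germline *Mov10* heterozygous mutant. *Emx1*-Cre is active in the excitatory cells of the cortex and hippocampus and their precursors, so that cells of other origins in the tissue, such as those of vessels and blood, keep any unrecombined allele, and WT pups carried no allele that the labels name. In these mixed tissues, fewer cells of a type and less RNA per cell cannot be told apart.

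Initiation begins when eIF2, loaded with GTP and the initiator tRNA, joins the small ribosomal subunit together with eIF1, eIF1A, eIF5 and the large eIF3 complex. The eIF4F complex (the cap-binding protein eIF4E, the scaffold eIF4G and the helicase eIF4A, helped by eIF4B or eIF4H) brings in the capped mRNA, poly(A)-binding protein ties in its tail, and the 4E-BPs block the step by holding eIF4E. After the large subunit joins, eEF1A delivers aminoacyl-tRNAs, the eEF1B subunits recharge eEF1A with GTP, and eEF2 moves the ribosome by a codon. In neurons these steps also run in dendrites, where local protein synthesis is controlled through eIF4E, eIF2 and eEF2.

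The libraries held between 71400300 and 86207971 estimated counts over all transcripts, and counting error matters most for the members of lowest CPM. *Mov10* itself was at 2.45, 2.13 and 2.09 CPM across the Deletion pools and at 4.81, 4.75 and 4.80 CPM across the WT pools (log2 fold change -1.11, adjusted p = 0.00115 in limma-trend), and its log2 fold change was -0.67 (adjusted p = 0.014) with counts made from length-scaled TPM. All 8 markers of hippocampal excitatory neurons were present, the lowest at a mean of 54.5 CPM. Their summed level was 2940.3 to 3194 CPM in the Deletion libraries and 2744 to 2834 CPM in WT, with 1 gene called higher and a median log2 fold change of -0.05. Of 9 marker lists of cell types and dividing cells, the list of dividing cells moved as a whole: 7 of its 7 genes fell, and its summed level was 276 to 304 CPM in the Deletion libraries and 328 to 359 CPM in WT. Mitochondrial mRNAs stood at 17452 to 18649 CPM in Deletion and 12218 to 16212 CPM in WT, and 2 of 7 astrocyte markers rose (summed level 1539 to 1611 against 1303 to 1484 CPM). Their part in the results below was not tested.

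Among the 62 tested members, 13 were lower and 3 higher in Deletion than in WT, and 46 did not pass the test (limma-trend with 2 factors of unwanted variation, Benjamini-Hochberg adjusted p below 0.05 over the 16745 genes tested). The lower calls made up 21% of the tested members, where 12.1% of all tested genes were called lower. The higher calls made up 4.84%, where 12.6% of all tested genes were called higher, and 24.7% were called in either direction. The called members were shifted by small amounts: the estimate furthest from 0 was that of *Eif4b*, at -0.39 on the log2 scale, and the other 15 lay between -0.22 and 0.22. The median log2 fold change over the tested members was -0.06, beside 0.01 over all tested genes, and 43 of 62 estimates (69.4%) were below 0, beside 48.9% of all genes. Without the factors, 12 members were called lower, where 9.96% of all genes were, and 2 higher, where 11% were. In 27 members every Deletion library lay below every WT library (43.5%, beside 21.2% of all genes), and in 4 members every Deletion library lay above, as it did in 20.4% of all genes. With upper-quartile in place of TMM normalization, 2320 genes in all were called higher and 1491 lower, beside 2104 and 2033 in the fit reported here, and the members split 3 higher to 12 lower.

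**Figure D1:**
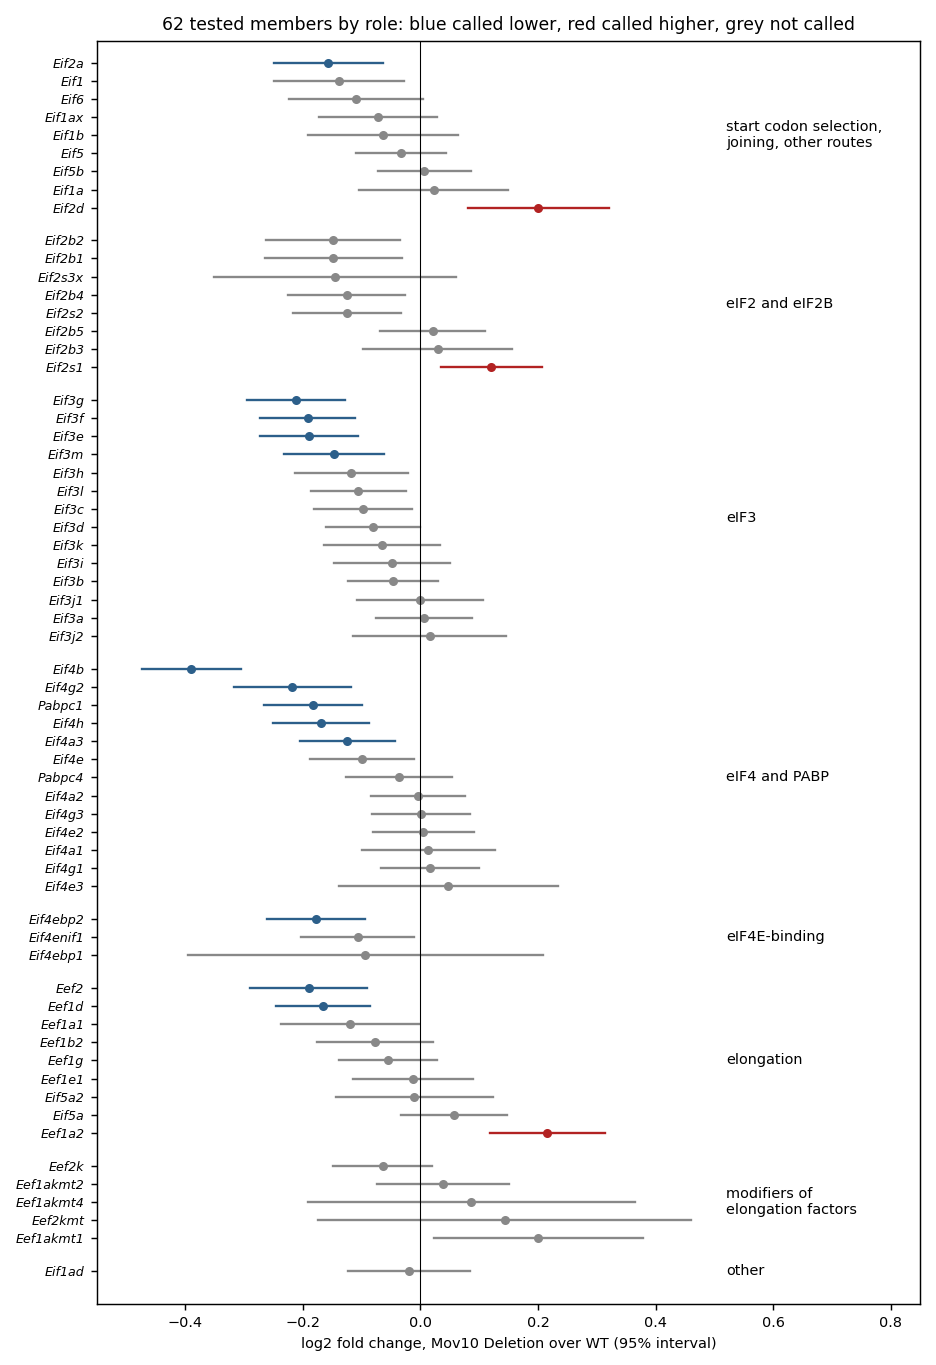
Log2 fold change of each of the 62 tested members, Mov10 Deletion over WT, with its 95% interval from limma-trend (3 libraries a group), grouped by role. Blue marks the 13 members called lower, red the 3 called higher and grey the 46 not called; *Eif4b* lies furthest from 0, at -0.39.

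The number of lower calls depended on single libraries. It was 5 without WT replicate 2, 20 without WT replicate 3, 22 without Deletion replicate 1, 24 without WT replicate 1 and 29 without Deletion replicate 2, each with the factors estimated anew. The number of all genes called lower in these fits is not given here. The counts therefore do not set the members apart from the whole table. Without WT replicate 2, 7 of the 16 calls remained: *Eif4b*, *Eif3e*, *Eif3f*, *Eif3g*, *Eif4ebp2*, *Eef1a2* and *Eif2d*. *Eif4b*, *Eif3g* and *Eif4ebp2* were called in each of 24 alternative fits, while *Eif4a3* was called in 13 and *Eif2s1* in 7 of them.

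Together the 84 members took 1.74, 1.74 and 1.69% of the counts in the Deletion libraries and 1.84, 1.86 and 1.92% in the WT libraries. The means were 1.72 ± 0.0252 and 1.87 ± 0.0455% (SD, n = 3 each), and the groups did not overlap. An exact two-sided permutation test gave p = 0.1, the smallest value that 3 against 3 libraries allow. Without the abundant *Eef1a1*, *Eef2* and *Eif4g2*, the share was 0.867 ± 0.0135% in Deletion and 0.911 ± 0.0113% in WT.

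Levels of different genes were compared as TPM, which is corrected for transcript length. *Eef1a1*, which carries aminoacyl-tRNAs to the ribosome, was the most abundant member at a mean of 6149.5 TPM over the 6 libraries, followed by *Eef2* (1414), *Eif4g2* (1081), *Eif4a1* (796) and *Eif4a2* (705). Within the other roles the highest means were 446 TPM for *Eif1*, 363 for *Eif3h*, 205 for *Eif2s3x* and 70.5 for *Eif4ebp2*. Subunits that act in one complex were not at one level: in eIF3 the mean TPM ran from 18.7 (*Eif3j2*) and 34.7 (*Eif3j1*), which encode the loosely held subunit eIF3j, to 363. The lowest tested member was *Eif4ebp1*, a 4E-BP, at 3.12 TPM.

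**Figure D2:**
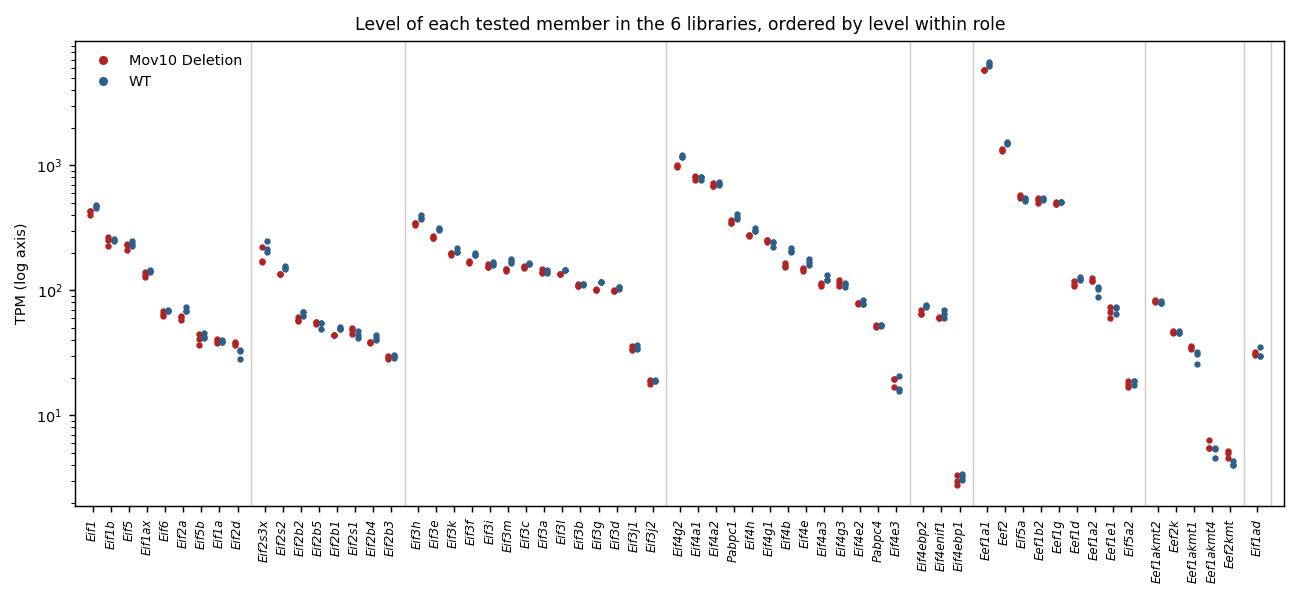
TPM of the 62 tested members in each library on a log axis, with Mov10 Deletion in red and WT in blue, grouped by role and ordered by level within it. *Eef1a1* stands highest, at 5793 to 6721 TPM, and the red points of *Eef1a1*, *Eef2*, *Eif4g2* and *Eif4b* lie below the blue ones.

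Of the 13 tested members of the eIF4 and poly(A)-binding group, 5 fell (*Eif4b*, *Eif4g2*, *Pabpc1*, *Eif4h* and *Eif4a3*) and 8 did not pass the test. Among all tested genes 12.1% fell. *Eif4b*, whose product stimulates the helicase eIF4A, was at 310.0, 322 and 325 CPM across the Deletion pools and at 412, 413 and 460.2 CPM across the WT pools (log2 fold change -0.39 ± 0.0364, adjusted p = 0.00127; SE here and below). The highest Deletion library lay well below the lowest WT library, and the mean was 319 ± 8.02 against 428 ± 27.6 CPM (SD, n = 3 each). *Eif4h*, which encodes a factor related to eIF4B, was at 294, 303 and 294 CPM across the Deletion pools and at 327, 334 and 363 CPM across the WT pools (log2 fold change -0.17 ± 0.035, adjusted p = 0.0133). For the helicase genes themselves, *Eif4a1* had a log2 fold change of 0.01 with a 95% interval of -0.10 to 0.13, and *Eif4a2* one of -0.00 with an interval of -0.08 to 0.08.

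*Eif4g2* encodes an eIF4G-like scaffold that lacks the eIF4E-binding part and serves initiation that does not need eIF4E. It was at 1743, 1787 and 1715 CPM across the Deletion pools and at 2002, 2023 and 2173 CPM across the WT pools (log2 fold change -0.22 ± 0.0432, adjusted p = 0.0116), with no overlap between the groups. The scaffold genes proper, *Eif4g1* (interval -0.07 to 0.10) and *Eif4g3* (-0.08 to 0.08), had estimates of 0.02 and 0.00. *Pabpc1*, the main cytoplasmic poly(A)-binding protein gene, was at 420.1, 413 and 400.1 CPM across the Deletion pools and at 472, 461 and 456 CPM across the WT pools (log2 fold change -0.18 ± 0.0359, adjusted p = 0.0112). The 3 Deletion libraries of *Pabpc1* lay below all WT libraries, and its paralogue *Pabpc4* gave -0.04 with an adjusted p of 0.528.

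*Eif4a3*, which despite its name encodes a core protein of the exon junction complex, fell least of the 5 (mean 80.2 ± 0.524 against 89.4 ± 5.39 CPM; log2 fold change -0.12 ± 0.0349, adjusted p = 0.0373). *Eif4e*, the cap-binding protein gene, missed the threshold at -0.10 (adjusted p = 0.0949), though its Deletion libraries (123, 123 and 118 CPM) lay below all WT libraries (129, 129 and 137 CPM). The calls of *Eif4g2*, *Pabpc1*, *Eif4h* and *Eif4a3* were lost without WT replicate 2, that of *Eif4a3* also without WT replicate 3. The calls of *Eif4h* and *Eif4a3* were lost with a score of Y-linked genes in place of the factors.

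**Figure D3:**
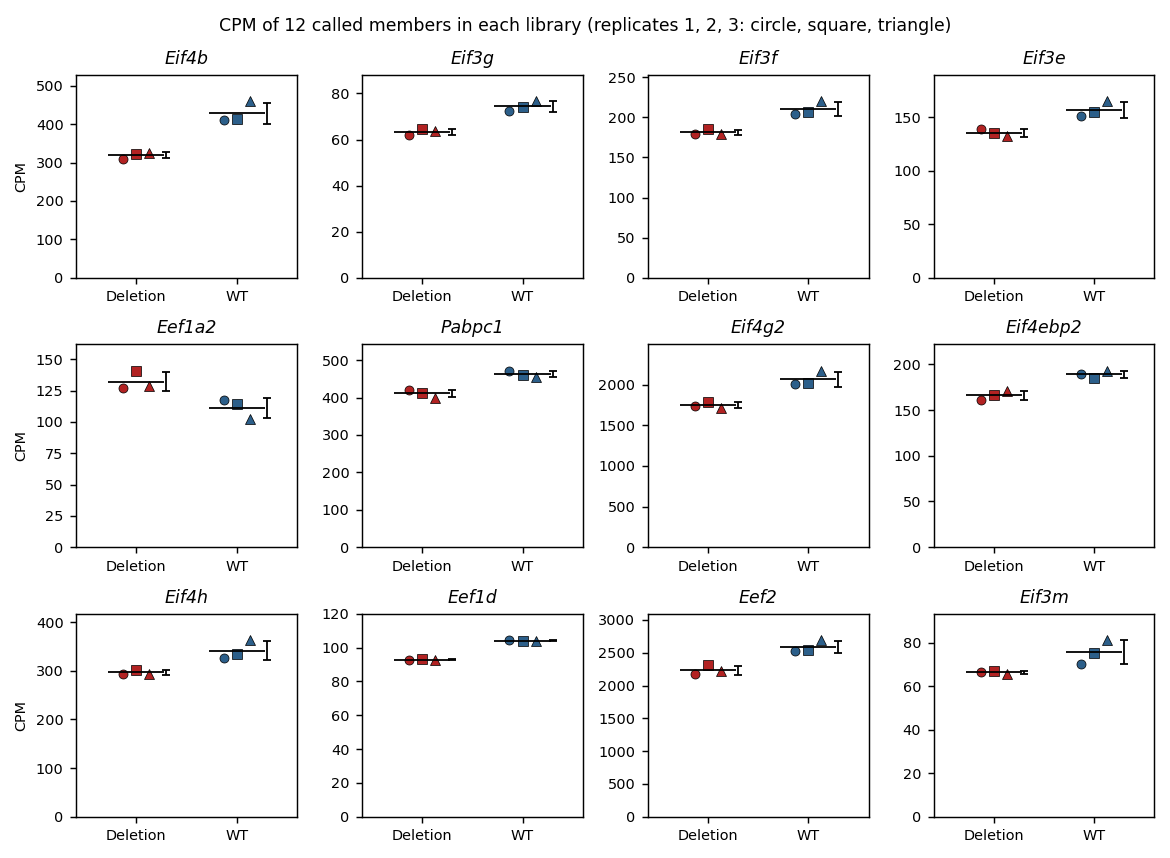
TMM-normalized CPM of the 12 called members with the smallest p in each library, linear axes from 0; circle, square and triangle are replicates 1, 2 and 3, the line is the group mean and the bar beside it ± 1 SD. In each of the 12 the groups do not overlap, and *Eef1a2* alone among them is higher in Deletion.

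In eIF3, the many-subunit complex that links the small ribosomal subunit to the factors on the mRNA, 4 of the 14 tested genes fell and 10 did not pass, with 12 of 14 estimates below 0. Of all tested genes 12.1% fell, and 48.9% had an estimate below 0. *Eif3g*, an RNA-binding subunit, was at 62.0, 64.5 and 63.8 CPM across the Deletion pools and at 72.3, 74.0 and 76.7 CPM across the WT pools (log2 fold change -0.21 ± 0.036, adjusted p = 0.00703). *Eif3f* was at 179, 185 and 179 CPM across the Deletion pools and at 204, 206 and 220.3 CPM across the WT pools (log2 fold change -0.19 ± 0.0349, adjusted p = 0.00874), and *Eif3e* at 139, 135 and 132 CPM across the Deletion pools and at 151, 154 and 165 CPM across the WT pools (log2 fold change -0.19 ± 0.036, adjusted p = 0.0102). In these 3 genes the highest Deletion library was below the lowest WT library. *Eif3m*, a neighbour of eIF3f and eIF3h in the complex, was at 66.5, 67.1 and 65.6 CPM across the Deletion pools and at 70.4, 75.3 and 81.2 CPM across the WT pools (log2 fold change -0.15 ± 0.0371, adjusted p = 0.0259). Its call was lost without WT replicate 2 and with the Y-linked score.

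The genes of the subunits eIF3a, eIF3b and eIF3c did not pass the test. *Eif3a* was at 392, 383 and 398 CPM across the Deletion pools and at 388, 391 and 388 CPM across the WT pools, a log2 fold change of 0.01 with an interval of -0.08 to 0.09. *Eif3b* (-0.05, adjusted p = 0.336) and *Eif3c* (-0.10, adjusted p = 0.085) had the Deletion libraries of both below all WT libraries. *Eif3h*, the most abundant subunit gene, was at 190.2, 197 and 183 CPM across the Deletion pools and at 202, 205 and 225 CPM across the WT pools (log2 fold change -0.12 ± 0.0417, adjusted p = 0.0753) and did not pass, again with no overlap. In all, 9 of the 14 eIF3 genes had every Deletion library below every WT library, as 21.2% of all tested genes did.

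Of the 8 genes for eIF2 and its exchange factor eIF2B, 1 passed the test, where 24.7% of all tested genes did. *Eif2s1*, which encodes the α subunit whose phosphorylation shuts down initiation under stress, rose by a little, at 66.5, 60.3 and 61.7 CPM across the Deletion pools and at 59.4, 56.5 and 53.4 CPM across the WT pools (log2 fold change 0.12 ± 0.0372, adjusted p = 0.0496). This call sat at the threshold and held in 7 of 24 alternative fits, and it was lost without Deletion replicate 1, Deletion replicate 3, WT replicate 2 or WT replicate 3. The β subunit gene *Eif2s2* had an estimate of the opposite sign, -0.12 (adjusted p = 0.0558), at 134, 134 and 128 CPM across the Deletion pools and at 143, 142 and 154 CPM across the WT pools. Of the 5 eIF2B subunit genes, *Eif2b1*, *Eif2b2* and *Eif2b4* had estimates of -0.15, -0.15 and -0.13 with adjusted p between 0.0607 and 0.0683, and *Eif2b3* and *Eif2b5* gave 0.03 and 0.02.

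*Eif2s3x* encodes the γ subunit, lies on the X chromosome, is known to escape X inactivation in mouse, and has a Y-linked copy, *Eif2s3y*. It was at 249, 338 and 251 CPM across the Deletion pools and at 289, 311 and 373 CPM across the WT pools, and the groups overlapped (log2 fold change -0.15 ± 0.089, adjusted p = 0.263). *Xist*, the RNA of the inactive X that marks female tissue, was at 0.184, 888 and 1.57 CPM across the Deletion pools and at 182, 251 and 643 CPM across the WT pools. In each group the library with the most *Xist* also had the most *Eif2s3x*, namely Deletion replicate 2 and WT replicate 3. *Eif2s3y* was at 65.5, 24.9 and 61.3 CPM in Deletion and at 39.5, 21.0 and 21.1 CPM in WT, and the 2 genes summed to 314, 363 and 312 CPM against 329, 332 and 394 CPM. With a score of the Y-linked genes in place of the factors, *Eif2s3x* had a log2 fold change of -0.10 (adjusted p = 0.484). It was called lower in 3 of 24 alternative fits: without Deletion replicate 2 (-0.29, adjusted p = 3.83e-05), without WT replicate 1 (-0.30, adjusted p = 0.00447) and without WT replicate 3 (-0.11, adjusted p = 0.0431). Without Deletion replicate 3 the estimate was -0.035.

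**Figure D4:**
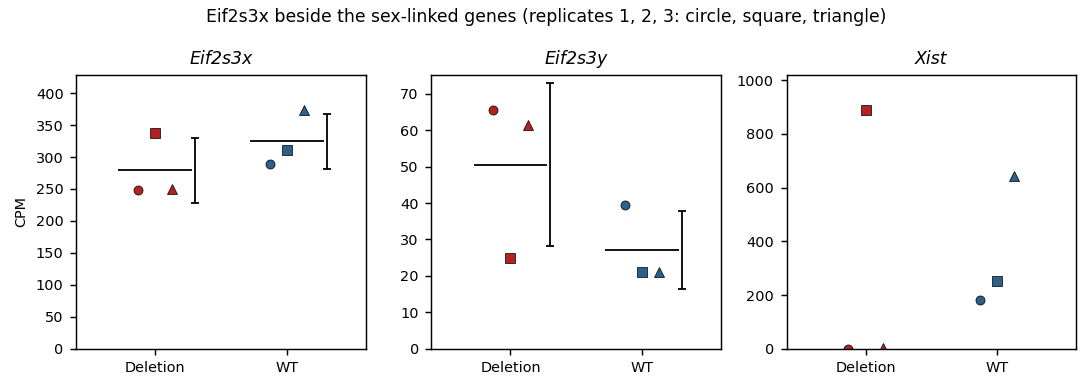
CPM of *Eif2s3x*, *Eif2s3y* and *Xist* in each library, linear axes from 0; circle, square and triangle are replicates 1, 2 and 3, with the group mean as a line and ± 1 SD as a bar for the first 2 genes. Deletion replicates 1 and 3, with *Xist* at 0.184 and 1.57 CPM, have the lowest *Eif2s3x* and the highest *Eif2s3y*.

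Among the 9 genes for start codon selection, subunit joining and other routes of initiation, 1 fell and 1 rose (11.1% each). Of all tested genes 12.1% fell and 12.6% rose, so that these shares were near those of all genes. Both called genes lie outside the canonical pathway. *Eif2a*, whose product can carry the initiator tRNA without being a subunit of eIF2, was at 47.1, 50.5 and 49.9 CPM across the Deletion pools and at 54.2, 54.1 and 60.0 CPM across the WT pools (log2 fold change -0.16 ± 0.0401, adjusted p = 0.0274). *Eif2d*, which acts in non-canonical initiation and in ribosome recycling, was at 34.3, 36.7 and 35.9 CPM across the Deletion pools and at 30.8, 32.4 and 28.9 CPM across the WT pools (log2 fold change 0.20 ± 0.0518, adjusted p = 0.0282). The groups did not overlap in either gene, and the call of *Eif2a* was lost without WT replicate 2 and with the Y-linked score. *Eif1*, which guards the choice of the start codon, was at 205, 207 and 188 CPM across the Deletion pools and at 212, 223 and 238 CPM across the WT pools and missed the threshold (log2 fold change -0.14 ± 0.0478, adjusted p = 0.0695).

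*Eif5*, the GTPase-activating factor of eIF2, whose protein served as a loading control in immunoblots of this mouse, was at 264, 273 and 269.9 CPM across the Deletion pools and at 266, 279.9 and 301 CPM across the WT pools. The groups overlapped, and the log2 fold change of -0.03 had a 95% interval of -0.11 to 0.04 (adjusted p = 0.506). The others in the group were *Eif6* (-0.11), *Eif1ax* (-0.07), *Eif1b* (-0.06), *Eif5b* (0.01) and *Eif1a* (0.02), with adjusted p of 0.141 or more.

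The proteins that hold eIF4E back gave 1 call among 3 tested genes, where 24.7% of all tested genes were called in either direction. *Eif4ebp2*, the main 4E-BP of the brain, was at 161, 166 and 171 CPM across the Deletion pools and at 189, 185 and 193 CPM across the WT pools (log2 fold change -0.18 ± 0.0363, adjusted p = 0.0128), with no overlap. *Eif4enif1*, the eIF4E transporter gene, had -0.11 (adjusted p = 0.0975), and *Eif4ebp1*, at about 2 CPM, had -0.09 with a wide interval of -0.40 to 0.21.

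Of the 9 elongation factor genes, 2 fell and 1 rose, where 12.1% and 12.6% of all tested genes did. *Eef2*, the translocation factor and target of the neuronal eEF2 kinase, was at 2169, 2309 and 2223 CPM across the Deletion pools and at 2519.7, 2545 and 2692 CPM across the WT pools (log2 fold change -0.19 ± 0.0431, adjusted p = 0.0181). *Eef1d*, an exchange subunit for eEF1A, was at 92.8, 93.4 and 92.7 CPM across the Deletion pools and at 104, 104 and 104 CPM across the WT pools (log2 fold change -0.17 ± 0.0344, adjusted p = 0.0135), values that barely differed within a group. Both sets of libraries were fully separate, and both calls were lost without WT replicate 2. That of *Eef2* was also lost with the Y-linked score, and that of *Eef1d* with counts made from length-scaled TPM. The other exchange subunits, *Eef1b2* (-0.08, adjusted p = 0.22) and *Eef1g* (-0.05, adjusted p = 0.298), overlapped between the groups, as did *Eif5a* (0.06), which helps ribosomes through difficult peptide bonds.

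The 2 genes for eEF1A, the form of most tissues (*Eef1a1*) and the form of mature neurons and muscle (*Eef1a2*), had estimates of opposite sign. *Eef1a2* was at 127, 141 and 129 CPM across the Deletion pools and at 117, 114 and 102 CPM across the WT pools and rose (log2 fold change 0.22 ± 0.0423, adjusted p = 0.0112). *Eef1a1* was at 4517, 4659.6 and 4428 CPM across the Deletion pools and at 4798, 4954 and 5356 CPM across the WT pools, and did not pass the test (log2 fold change -0.12 ± 0.0507, adjusted p = 0.121; interval -0.24 to -0.00), although the groups did not overlap. It was called lower in 11 of 24 alternative fits, among them both DESeq2 fits, limma-voom and all fits without 1 library but that without WT replicate 2. Per length, *Eef1a2* stood at 121 ± 4.12 TPM in Deletion and 99.2 ± 9.21 TPM in WT (SD, n = 3 each), and *Eef1a1* at 5814 ± 18.7 and 6485 ± 226 TPM. As a share of their summed TPM, *Eef1a2* made up 2.00, 2.11 and 2.00% in the Deletion libraries and 1.68, 1.55 and 1.31% in WT.

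Of 5 tested genes for enzymes that modify elongation factors, 0 were called by limma-trend with the RUVs factors, by edgeR or by DESeq2, and 1 had an unadjusted p below 0.05. This was *Eef1akmt1*, a lysine methyltransferase of eEF1A (0.20, adjusted p = 0.0941 in limma-trend), at 10.7, 10.3 and 10.4 CPM across the Deletion pools and at 8.99, 9.70 and 8.04 CPM across the WT pools. It was called in 1 of 24 alternative fits, that with RUVr factors (adjusted p = 0.0404). *Eef2k*, the kinase that inactivates eEF2, had -0.06 with an interval of -0.15 to 0.02, and *Eef1akmt2*, the most abundant of these enzymes at 81.1 TPM, had 0.04.

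Messages for many of these factors begin with a terminal oligopyrimidine (TOP) run, a C at the cap followed by pyrimidines, through which mTOR signalling controls their translation. Of the 10 members known as TOP messages, 6 fell (*Eef1d*, *Eef2*, *Eif3e*, *Eif3f*, *Eif4b* and *Pabpc1*), where 21% of all tested members and 12.1% of all tested genes did. The 10 are counted in that 21%, and the 6 are among the 13 members called lower. *Eef1a1*, *Eef1b2*, *Eef1g* and *Eif3h* did not pass. The median log2 fold change of the 10 was -0.17, beside -0.04 for the 52 other tested members. This list was chosen with earlier results of these data known, so that the contrast is only a description. The count of lower calls was 3 without WT replicate 2 and 9 without Deletion replicate 1, Deletion replicate 2 or WT replicate 1.

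The annotated starts of the members were read from the genome to see which of them show such a run. The windows printed next hold 10 bases before the annotated start of each gene's main transcript and 20 bases from it (GENCODE on GRCm39, transcript strand), with capitals marking the pyrimidines from the C nearest the start that has at least 4 after it. Further pyrimidines may precede the capitals. They are the TOP members in which a run was found, the member that rose most, and the member that fell most, in which none was found.
Eef1a1, chr9:78388987-78389016, minus strand: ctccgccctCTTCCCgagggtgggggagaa
Eef1g, chr19:8944395-8944424, plus strand: cccctcgCTTTTTCCaactcagcggggctg
Eif3f, chr7:108533611-108533640, plus strand: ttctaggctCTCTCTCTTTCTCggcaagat
Pabpc1, chr15:36609199-36609228, minus strand: aggcggtgcttCCCCTTCTCCCCggcggtt
Eef1a2, chr2:180799581-180799610, minus strand: aggaacctttgCTTCCTacttgcaaccaca
Eif4b, chr15:101982065-101982094, plus strand: ccacaagtctgtgcgccaggagactccgcc

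A run was counted where a C within 5 bases of the annotated start, on the transcript strand, was followed by at least 4 bases that were each C or T. Of 14551 tested protein-coding genes 20.0% had one, beside 19 of the 62 tested members (30.6%) and 4 of the 10 TOP members. Of the 19 members with one, 3 fell and 2 rose, and of the 43 without, 10 fell and 1 rose. Outside the TOP list, 1 of 15 tested members with a run and 6 of 37 without fell, where 12.1% of all tested genes did. Among all tested coding genes, 381 of 2915 with a run fell and 357 rose. Of the 11636 without, 1583 fell and 1497 rose. Among the tested members the median log2 fold change was -0.05 with a run and -0.08 without. Among all tested coding genes it was -0.0031 with a run and -0.0038 without. Annotated starts can lie some bases away from the starts used in this tissue, so that a missing run says only that these letters are not in the window.

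In 10 pairs of paralogues with related functions, the share of the second gene in the pair's summed TPM was compared between the groups. In 5 of them the Deletion and WT libraries did not overlap, while the CPM of 41.6% of all tested genes did not overlap either, and the exact two-sided permutation test gave p = 0.1 for each, the smallest that 3 against 3 libraries allow (adjusted p = 0.2 over the 10 pairs). *Eef1a2* made up 2.04 ± 0.0661% of its pair in Deletion and 1.51 ± 0.188% in WT (SD, n = 3 each). *Eif4e2*, which encodes a cap-binding protein that does not bind eIF4G and represses translation, made up 34.9 ± 0.882% against 32.1 ± 1.47% of its pair with *Eif4e*. *Pabpc4* made up 12.8 ± 0.133% against 11.9 ± 0.608% of the pair with *Pabpc1*, and *Eif1b* 37.0 ± 1.08% against 34.9 ± 0.709% of that with *Eif1*. The share of *Eif1ax* in the pair with *Eif1a* was 77.2 ± 1.19% in Deletion and 78.5 ± 0.177% in WT. Those of *Eif5a2*, *Eif4a2*, *Eif4g3*, *Eif4ebp2* and *Eif3j2* overlapped, with differences between -0.645 and -0.175 percentage points.

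**Figure D5:**
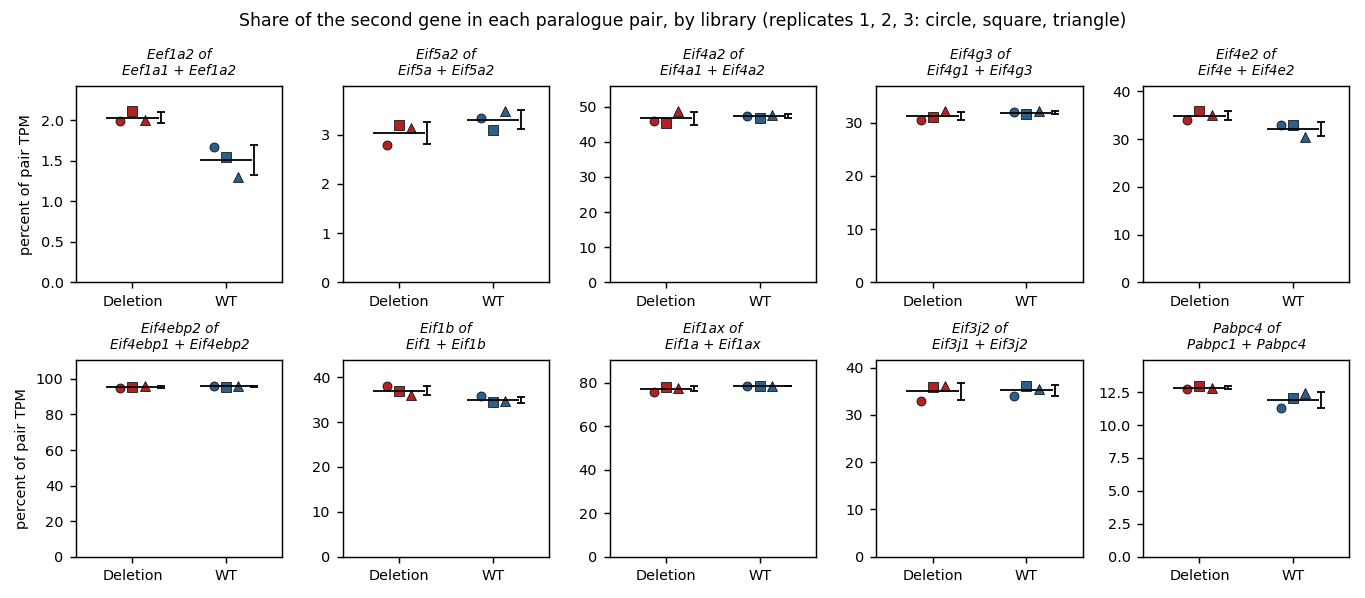
Share of the second gene in the summed TPM of 10 paralogue pairs, in percent, by library, linear axes from 0; circle, square and triangle are replicates 1, 2 and 3, the line is the group mean and the bar ± 1 SD. *Eef1a2* has a mean of 1.51% of the pair in WT and 2.04% in Deletion, and in 5 of the pairs the groups overlap.

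Within the members, the way reads were divided among annotated transcripts also differed between the groups. This comparison was chosen after the transcript values had been seen. Transcripts annotated as retained introns, which keep an intron and encode no full protein, took 2.55, 2.55 and 2.94% of the members' TPM in the Deletion libraries and 2.28, 2.14 and 2.20% in WT. The means were 2.68 ± 0.226 and 2.21 ± 0.0725% (exact two-sided permutation p = 0.1, the smallest possible), and in estimated counts 1.04 ± 0.108 and 0.841 ± 0.0249%. Among all other protein-coding genes the same share was 5.35 ± 0.464% in Deletion and 4.58 ± 0.233% in WT, a shift in the same direction. The mean share was higher in Deletion in 30 of the 42 members with such a transcript (71.4%) and in 73.4% of the other coding genes. Of the 42 members with such a transcript, 18 had a higher share in every Deletion library than in any WT library, where 20.2% of all 7770 coding genes examined did, and 1 (*Eif2s1*) had a lower one, where 2.16% did. The other coding genes were taken from a mean of 1 TPM up and were not matched to the members by level, so the 2 shares are not strictly alike.

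In *Eif4b* the retained-intron share was 1.06, 1.21 and 1.62% in Deletion and 0.613, 0.207 and 0.359% in WT. In *Eef1d* it was 5.49, 5.93 and 8.81% against 4.79, 3.37 and 3.01%, and in *Eif4a2* 14.5, 12.9 and 14.8% against 11.9, 11.2 and 11.6%. *Eif3h* differed in another transcript: *Eif3h-204*, which has no defined coding sequence, took 0.901 to 1.64% of the gene's TPM in Deletion and 3.73 to 4.93% in WT. *Eif4h* shifted between 2 coding transcripts, with *Eif4h-205* at 54.2% of its TPM in Deletion and 61.6% in WT, and *Eif4h-201* at 38.3 and 33.2% (means of 3 libraries). These divisions are Salmon's estimates from reads that the transcripts share, and no test across transcripts is given.

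Reads of some members can be shared with near-identical copies. *Eif3j1* and *Eif3j2* are 99.4% identical over their aligned bases, so that their separate values (log2 fold changes of -0.00021 and 0.02) are uncertain. *Eif4a1* shares sequence with a set of copies that held between 3.70 and 7.43% of the joint counts, and *Eif1* with genes that held 16.4 to 18.1% of them. For *Eef1d* the share was 1.84 to 2.76%, nearly all of it in *Naprt*, a separate coding gene at the same locus that shares 277 bases with it. The *Eef1a1* processed pseudogene *Gm13456* had 311, 274 and 161 counts in the Deletion libraries and 19.1, 19.1 and 19.1 in WT, and all copies of *Eef1a1* together held at most 0.156% of the joint counts. Adding the counts of all copies to each member left 3 members higher and 13 lower.

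The 22 members that were not tested were at or under 0.410 CPM in every library. Of these, 15 had no count in any library: *Eif4a3l1* and 14 of the *Eif1ad* copies. *Eif1ad6*, *Eif1ad8*, *Eif4a3l2* and *Eif4e1b* had at most 2 counts in a library, and *Eef1akmt3* had 3 to 9. *Eif4ebp3* lies inside a longer gene with which it shares its sequence, and *Eef1ece2*, a readthrough gene, shares its reads with *Ece2*, so that their counts of up to 17.5 and 29.2 are uncertain. *Eif1ad*, the only tested member of its family, had -0.02 (adjusted p = 0.782).

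Genes that act around these factors moved in both directions. Of 45 genes of translation control (kinases, mTOR components, poly(A)-binding protein partners and others), 11 fell and 4 rose, where 12.1% and 12.6% of all tested genes did, and the median was -0.01. *Paip1*, which joins poly(A)-binding protein to the initiation complex, was at 84.5, 84.7 and 83.4 CPM across the Deletion pools and at 98.3, 99.1 and 103 CPM across the WT pools (log2 fold change -0.24 ± 0.0352, adjusted p = 0.00431). *Akt1s1*, an inhibitor of mTOR complex 1, had -0.24 (adjusted p = 0.00549), and *Paip2b*, an inhibitor of poly(A)-binding protein, -0.19 (adjusted p = 0.00877). The count of 15 called genes was 6 without WT replicate 2.

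Of 22 cytoplasmic aminoacyl-tRNA synthetase genes, which charge the tRNAs that eEF1A carries, 4 rose and 2 fell, where 24.7% of all tested genes were called in either direction, so that the share called was near that of all genes. *Qars1*, for glutamine, was at 61.1, 63.9 and 63.0 CPM across the Deletion pools and at 69.5, 71.7 and 70.8 CPM across the WT pools (log2 fold change -0.17 ± 0.0375, adjusted p = 0.0177). *Iars1*, for isoleucine, was called at 0.45 although its groups overlapped (32.9, 11.8 and 15.7 against 10.4, 16.6 and 13.8 CPM), and its adjusted p was 0.0174 with the factors and 0.323 without. The count of 6 was 2 without WT replicate 2 and 12 without Deletion replicate 2. Of 9 genes for mitochondrial translation factors, 2 rose, where 12.6% of all tested genes did. They were the elongation factors *Gfm1* (0.22, adjusted p = 0.0175) and *Gfm2* (0.17, adjusted p = 0.0425), and the count was 1 without Deletion replicate 3, WT replicate 1 or WT replicate 2.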

How the data were processed

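The authors trimmed adapters and quantified the reads with Salmon 1.4.0 against the mouse transcriptome, with the GRCm39 genome as decoy. Which annotation release they used is not stated. The deposited estimated counts are fractional and carry no normalization, and the TPM the authors deposited are scaled for effective length and library size. Groups and replicate numbers came from the sample titles.

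Of 139225 transcripts per file, 137570 matched GENCODE M39 by identifier without version, and the rest held 0.589 to 0.600% of the counts and were left out. Counts and TPM were summed per gene. The main test followed the study: genes at 0.25 CPM or more in at least 3 libraries, TMM, limma-trend (log2 CPM, prior count 2) with genotype and 2 RUVs factors, computed from log TMM-normalized counts since the study names no function, and Benjamini-Hochberg adjustment over 16745 genes (limma 3.58.1, edgeR 4.0.16, R 4.3.3). It left 2 residual and 5.89 prior degrees of freedom. The p-values therefore rest more on the trend of variance over all genes of like level. A gene's own spread between pools, after the factors, counts for less. CPM are TMM-normalized without the factors. Near-identical copies were found with blastn 2.17.0 (95% identity over at least 200 bases). The gene-level test recovered known changes in simulated counts. A test of transcript usage did not when tested on simulated data, and is not reported. Same-numbered libraries did not deviate together (r = 0.0114, -0.0711 and 0.0432 for replicates 1, 2 and 3), so the numbers were not taken as pairs.

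The members and all gene lists were chosen with earlier results of these data known. By rule, values in every library are given for the 12 called members with the smallest p, the most abundant member of each role, *Eif5*, the paralogue pairs and *Eif2s3x*, and the other called members are named, with up to 3 genes of each further list (1 result is not reported here). Others that are named were chosen after their values were seen. Alternatives were DESeq2 1.42.0, edgeR's quasi-likelihood test, limma-voom, other factors, normalizations and filters, a replicate block, added copies, and leaving out each library.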

Additional observations from a re-analysis of the deposited data

How the results depend on the processing

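Of 272 recomputed values of the main results, 235 kept their direction and stayed within the limits set (1.5 times for a count, 1 SD for a median or share). The 13 members called lower became 24 with RUVr factors, 20 with DESeq2 without factors, 8 with a score of Y-linked genes in place of the factors and 3 with no filter on low counts, when 29469 genes entered the adjustment. They ranged from 5 to 29 when each library was left out in turn. All genes called lower numbered 2712 with RUVr factors, beside 2033 in the main fit. For most other fits the count over all genes is not given, so these counts do not set the members apart from the whole table. With no filter, limma-trend called 0 members higher, and 5 had an unadjusted p below 0.05; edgeR's quasi-likelihood test with the filter called 3. Leaving out libraries gave 2 to 4. The median log2 fold change of the members was -0.042 with upper-quartile normalization and -0.12 to -0.029 without single libraries. TOP members called lower numbered 1 with no filter and 3 to 9 without single libraries. Translation control genes called numbered 9 without factors (in limma-trend and in edgeR), 4 with the Y-linked score, 7 with DESeq2 and the factors, 2 with no filter and 6 to 22 without single libraries. Called tRNA synthetase genes numbered 10 with RUVr factors, 1 with the Y-linked score, 3 with length-scaled TPM, 0 with no filter (13 at an unadjusted p below 0.05) and 2 to 12 without single libraries. Called mitochondrial translation factor genes numbered 0 with the Y-linked score and with no filter (3 and 2 at an unadjusted p below 0.05), 1 with DESeq2 and the factors, 1 with length-scaled TPM and 1 to 3 without single libraries. The log2 fold change of *Mov10* stayed between -1.17 and -1.07 without single libraries and was -0.67 with length-scaled TPM. With the replicate block in place of the factors, 12 members were called lower and 2 higher, 6 translation control genes were called and 1 mitochondrial translation factor gene. Factors from log2 CPM, an alternative chosen after seeing the data, gave 13 lower and 2 higher. Apart from fewer samples or more genes in the adjustment, the cause of these shifts was not tested.

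Of the 46 members that were not called, 18 were called in some alternative and 16 changed the sign of their estimate in some alternative. The alternatives for transcript usage were not run, since that test is not reported. With 3 pools a group, 2 factors leave few degrees of freedom, the number of calls turns on single pools, and exact tests cannot fall below p = 0.1. The pools differ in their sex-linked genes, and members under 1 CPM rest on few counts.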

Other observations

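All 7 tested members on chromosome 15 (*Eif4b*, *Eif3e*, *Pabpc1*, *Eef1d*, *Eif3h*, *Eif3l* and *Eif3d*) had estimates below 0, and 4 of them were called lower. Their median log2 fold change was -0.17. Among the 646 other tested genes on that chromosome 13% were called lower, and the median over all 653 was 0.01. On chromosome 16, 1 of 5 tested members was below 0 in estimate and none was called. This grouping was noticed after the values were seen and has no test. No member lies near the targeted or the Cre locus: the nearest to *Mov10* is *Eif4e*, 33.5 Mb away, and the nearest to *Emx1* is *Eif4e3*, 14.4 Mb away.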
